A study of Mus musculus with 8 samples.

Results

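Nuclear receptors are transcription factors that change the genes they switch on or off when a small lipophilic ligand, such as a bile acid, an oxysterol, a fatty acid or a hormone, binds to them. The set described here holds 32 nuclear receptor genes of interest in the liver, taken by gene name, out of 54532 genes listed in the deposited expression table. Of these 32 genes, 30 had a mean of at least 0.1 FPKM (fragments scaled to gene length and library size) over all libraries and were tested. Vdr and Esrrb were below that minimum and are given as values.

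Livers of 4 METTL3-HKD mice were compared with livers of 4 METTL3-Flox mice by RNA sequencing of whole tissue, with 1 library per liver. METTL3-HKD mice were heterozygous, METTL3 flox/- with Alb-iCre, in which the albumin promoter drives the recombinase in hepatocytes. METTL3-Flox mice were METTL3 flox/flox without Cre and came from the same litters, though the sources do not say which pups shared a litter. All 8 mice had 1 h of partial warm ischemia of the liver followed by 6 h of reperfusion, so the comparison asks how the genotypes differ in injured liver, and no sham-operated liver is part of it. METTL3 is the catalytic subunit of the enzyme that adds m6A to mRNA.

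Many receptors of this class bind DNA as a heterodimer with a retinoid X receptor, on pairs of a short hexamer whose spacing differs between partners. HNF4 receptors bind as homodimers on closely spaced repeats of a similar hexamer, and steroid receptors use a different element. In hepatocytes these receptors set the genes of bile acid synthesis, lipid handling, drug metabolism and plasma protein production, and HNF4A is needed to keep hepatocytes differentiated.

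The upstream windows of the 3 receptors that passed the test below are shown because the common hexamer AGGTCA and the GC box GGGCGG can be looked for in them. Windows are the bases before a RefSeq transcription start on build GRCm38.p6, written 5′ to 3′ on the gene's strand, which is the plus strand for all 3 genes, without bases that GENCODE M21 places in an exon. Capitals mark AGGTCA or GGGCGG on either strand, so that TGACCT and CCGCCC are also in capitals. For Hnf4a the downstream start is shown (chr2:163546943-163547154), for Rxra both starts (chr2:27676951-27677200 and chr2:27709042-27709291), and for Rara the most upstream start (chr11:98937446-98937695).
Hnf4a, downstream start: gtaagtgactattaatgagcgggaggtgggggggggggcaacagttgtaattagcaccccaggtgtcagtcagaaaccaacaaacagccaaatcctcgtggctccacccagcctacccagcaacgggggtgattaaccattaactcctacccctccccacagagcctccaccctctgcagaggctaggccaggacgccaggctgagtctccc
Rxra, upstream start: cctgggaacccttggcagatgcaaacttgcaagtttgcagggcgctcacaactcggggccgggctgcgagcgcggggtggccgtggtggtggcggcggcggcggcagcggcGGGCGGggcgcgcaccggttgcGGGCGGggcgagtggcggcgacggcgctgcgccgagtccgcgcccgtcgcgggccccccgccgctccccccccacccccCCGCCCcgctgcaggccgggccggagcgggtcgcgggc
Rxra, downstream start: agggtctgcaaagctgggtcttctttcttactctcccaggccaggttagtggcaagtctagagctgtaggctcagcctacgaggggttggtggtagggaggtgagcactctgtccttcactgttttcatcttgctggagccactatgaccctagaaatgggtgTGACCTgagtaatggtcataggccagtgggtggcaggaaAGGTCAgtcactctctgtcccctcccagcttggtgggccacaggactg
Rara, most upstream start: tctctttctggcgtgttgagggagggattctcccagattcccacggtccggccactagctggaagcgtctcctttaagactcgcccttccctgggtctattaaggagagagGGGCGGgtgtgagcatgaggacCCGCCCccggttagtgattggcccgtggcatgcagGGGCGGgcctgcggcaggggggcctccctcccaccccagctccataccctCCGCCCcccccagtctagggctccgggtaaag

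The Rxra window at the downstream start held 2 AGGTCA hexamers, and its window at the upstream start held 0 hexamers and 3 GC boxes. The Rara window shown held 4 GC boxes and 0 hexamers, and the Hnf4a window held neither. Over all 49 windows of 250 bases that RefSeq gives for 29 of the 32 receptors, 8 windows held AGGTCA, in Nr5a2, Nr6a1, Pparg, Rarg, Rxra, Rxrg and Thrb. Among all 32851 windows of that length, 14.0% held it. The spaced repeats AGGTCANAGGTCA and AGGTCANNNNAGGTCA were in 0 receptor windows, and in 0.0335% and 0.0152% of all windows. GC boxes were in 21 receptor windows, against 32.7% of all windows, and the median GC content was 59.6% in receptor windows and 52.4% in all. Windows for Nr3c1, Thra and Hnf4g were not matched. These matches describe the letters of the windows and were not tied to binding.

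Library facts that touch the receptors are as follows. Reads on genes, rebuilt from FPKM and gene length, ranged from 15961479 to 18434488 in METTL3-HKD livers and from 15861245 to 17262991 in METTL3-Flox livers. The library size used for the deposited FPKM, divided by the reads on genes, was 1.008 to 1.167 in METTL3-HKD livers, highest in livers 1 and 2, and 0.840 to 1.008 in METTL3-Flox livers. Mettl3 itself had a mean of 1.33 ± 0.181 FPKM (SD, n = 4) in METTL3-HKD livers and 1.50 ± 0.282 FPKM (SD, n = 4) in METTL3-Flox livers, with overlapping groups (adjusted p = 0.556, limma). Its whole-gene value includes exons outside the floxed exon 4 and bases shared with Tox4, so it did not check the genotype. How far these bases bear on the value was not tested. The paper reports reduced METTL3 in the liver of METTL3-HKD mice from a separate measurement in organs. The summed FPKM of 8 hepatocyte markers was 22477 to 33335 in METTL3-HKD livers and 29125 to 33795 in METTL3-Flox livers, with 0 of 8 past the test, and livers 1 and 2 of the METTL3-HKD group were the lowest. Kupffer cell markers were lower for 4 of 6 genes, with sums of 62.6 to 139.7 (METTL3-HKD) and 140.4 to 347 (METTL3-Flox). Neutrophil markers were higher for 6 of 6, with sums of 329 to 1610 and 12.8 to 44.04. Of the sinusoidal endothelial markers 1 of 6 was lower, with sums of 48.0 to 55.2 and 52.5 to 62.3. Of the stellate cell markers 1 of 7 was higher and 2 were lower, with sums of 50.1 to 67.1 and 51.4 to 113. Cholangiocyte markers were higher for 3 of 4, with sums of 7.79 to 13.9 and 3.19 to 6.10, and lymphocyte markers passed for 0 of 4 tested of 6, with sums of 1.08 to 4.36 and 1.35 to 1.92. No marker was at 0 in all libraries. In whole tissue, fewer cells of a type and less RNA per cell cannot be told apart, and the part of these marker shifts in the receptor values was not tested.

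Hnf4a and Rxra were the most abundant receptors in these livers, with means of 155 and 103 FPKM in METTL3-Flox livers. Hnf4a held 31.4 ± 2.12% (SD, n = 4) of the summed FPKM of the 32 genes in METTL3-Flox livers and 29.5 ± 3.45% in METTL3-HKD livers. Rxra, the shared dimer partner, held 20.9 ± 0.828% and 19.9 ± 1.26%. Nr1h3, which encodes the oxysterol receptor LXRalpha, followed with 10.04 ± 1.43% and 9.65 ± 0.931%. In the METTL3-Flox livers these 3 genes did not overlap each other or the next gene in level. Below them, most neighbours in the order overlapped, as Nr2f6 with Ppara, Nr1h2 with Esrra, and Thra with Nr2c1. Of the 32 receptors, 10 had a mean over all livers of at least 10 FPKM, 14 lay between 1 and 10 FPKM, and 8 were below 1 FPKM. The sum over the 32 genes was 379 ± 29.3 FPKM in METTL3-HKD livers (346 to 417) and 493 ± 18.5 FPKM in METTL3-Flox livers (471 to 510). The groups did not overlap on this deposited scale. That gap depends on the deposited library sizes, which stood differently to reads on genes in the 2 groups, as given above.

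**Figure D1:**
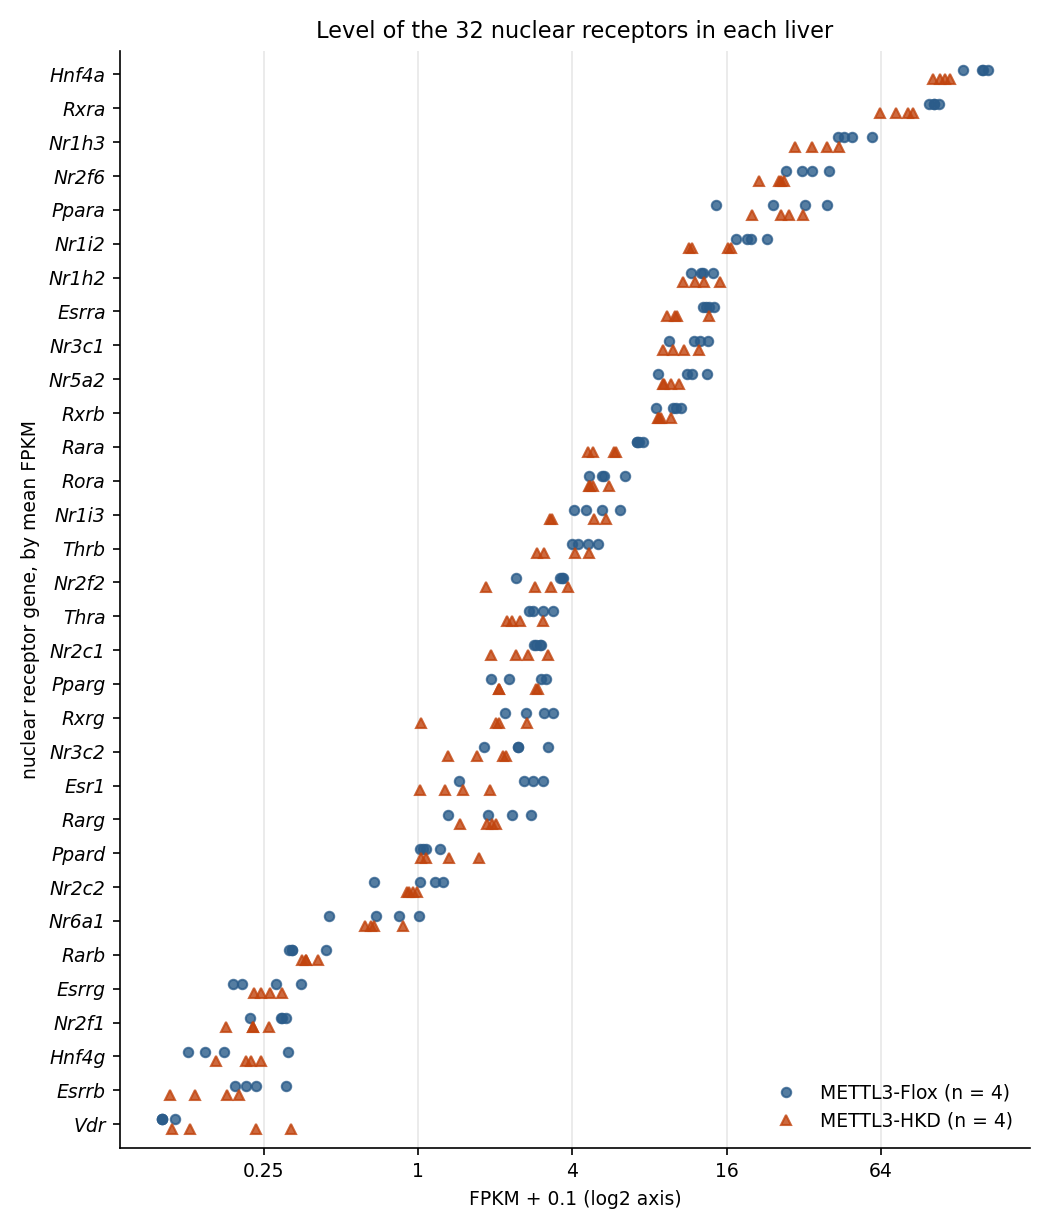
FPKM plus 0.1 of each of the 32 receptors in each liver on a log2 axis, with genes in order of their mean over all livers. Circles are the 4 METTL3-Flox livers and triangles the 4 METTL3-HKD livers; Hnf4a and Rxra stand at the top with groups apart, and Vdr at the bottom is at 0 in 3 METTL3-Flox livers.

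Of the 30 receptors tested, Hnf4a, Rxra and Rara were lower in METTL3-HKD livers at an adjusted p under 0.05, and 0 were higher. Each library is 1 liver, so the p-values rest on the spread between livers, moderated by limma over all genes. By the same rule, 6.63% of all 16645 genes tested were lower and 9.05% were higher. None passed a log2 fold change of 1 as well, where 1.52% of all genes were lower and 4.7% higher. The tool was limma on log2(FPKM + 0.1), with adjustment over all genes. At an unadjusted p under 0.05, 8 receptors were lower and 0 were higher, against 15.1% and 16.7% of all genes. The other tool, voom on the rebuilt reads, called 4 lower, with Nr1i2 added, and 0 higher, against 7.22% and 9.26%. On the deposited FPKM, every METTL3-HKD liver lay below every METTL3-Flox liver for 5 receptors, Hnf4a, Rxra, Nr2f6, Nr1i2 and Rara. Of all genes, 9.95% did so. The opposite held for 0 receptors and 12.7% of all genes.

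The sign of the difference was negative for 25 of the 30 receptors, against 50.3% of all genes. The median log2 fold change was -0.219 over the receptors and -0.0028 over all genes tested. Among the 10 receptors with at least 10 FPKM, 9 were negative with a median of -0.373, and 2 passed. The 3398 genes of that level had a median of -0.107, with 62.3% negative and 14.3% called lower. The 14 receptors between 1 and 10 FPKM had a median of -0.233, with 13 negative and 1 called, and the 6 tested below 1 FPKM had a median of 0.00673, with 3 negative. Single livers moved the count of receptors called lower. It was 0 without METTL3-Flox liver 3 or without METTL3-HKD liver 2, 1 without METTL3-Flox liver 4 (Esr1) or METTL3-HKD liver 1 (Hnf4a), and 6 without METTL3-HKD liver 3. The share of all genes called lower moved as well. In the order of these fits it was 2.13%, 3.44%, 3.35%, 2.87% and 6.89%.

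**Figure D2:**
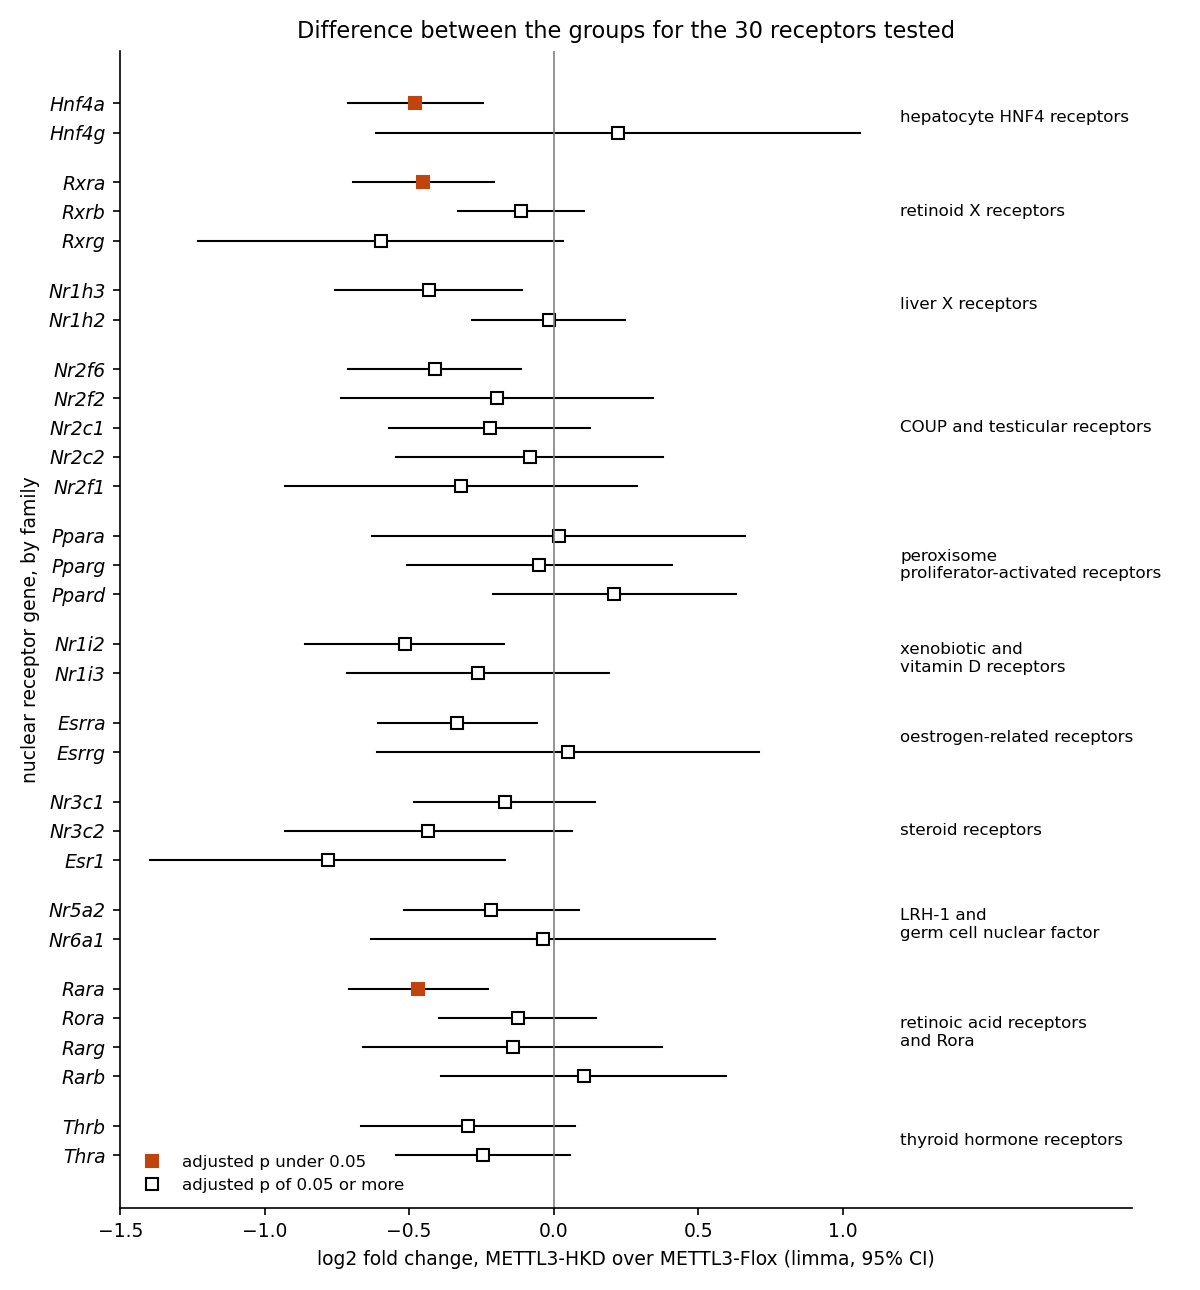
Log2 fold change of METTL3-HKD over METTL3-Flox livers for the 30 receptors tested, grouped by family, with the 95% confidence interval from limma. Filled squares mark the 3 with an adjusted p under 0.05, Hnf4a at -0.48, Rxra at -0.45 and Rara at -0.47.

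Hnf4a, the receptor that maintains hepatocyte gene expression, fell in METTL3-HKD livers. Its FPKM was 119, 109, 114 and 103 in METTL3-HKD livers 1 to 4 and 159, 134, 168 and 160.4 in METTL3-Flox livers 1 to 4. The highest METTL3-HKD liver stayed under the lowest METTL3-Flox liver, and among the METTL3-HKD livers liver 4 was the lowest and liver 1 the highest. The means were 111 ± 7.08 and 155 ± 15.0 FPKM (SD, n = 4), with a log2 fold change of -0.48 (SE 0.103, adjusted p = 0.0187). The gene (ENSMUSG00000017950) lies at chr2:163506808-163572910 on the plus strand of GRCm38 and shares no exon with another gene in GENCODE M21. Across 18 alternatives the adjusted p ranged from 0.0106 to 0.191, and the gene passed in 12.

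Hnf4g, its low-level relative, was near the detection limit. It had 0.113, 0.144, 0.0631 and 0.123 FPKM in METTL3-HKD livers and 0.0268, 0.212, 0.0750 and 0.0472 FPKM in METTL3-Flox livers. The groups overlapped fully, and these values rest on 1 to 9 reads per liver (log2 fold change 0.22, SE 0.370, adjusted p = 0.717).

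Rxra fell as well, while its relatives did not pass. Rxra had 63.5, 72.9, 85.7 and 81.3 FPKM in METTL3-HKD livers and 98.7, 103, 103 and 107 FPKM in METTL3-Flox livers. The METTL3-Flox livers lay close together, the METTL3-HKD livers were spread more widely with livers 1 and 2 lowest, and the groups did not overlap. The means were 75.8 ± 9.80 and 103 ± 3.57 FPKM (SD, n = 4), with a log2 fold change of -0.45 (SE 0.108, adjusted p = 0.0263). It lies at chr2:27676440-27762957 (plus strand, ENSMUSG00000015846) and passed in 10 of 18 alternatives, with an adjusted p of 0.0176 to 0.159. Rxrb, expressed in most tissues, ranged from 8.58 to 9.66 FPKM in METTL3-HKD livers and from 8.37 to 10.5 FPKM in METTL3-Flox livers, with overlap (log2 fold change -0.11, adjusted p = 0.456).

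Rxrg, the least abundant retinoid X receptor, had 0.931, 1.98, 2.55 and 1.92 FPKM in METTL3-HKD livers and 2.08, 3.02, 3.26 and 2.54 FPKM in METTL3-Flox livers. METTL3-HKD liver 1 was by far the lowest, and the ranges overlapped. The log2 fold change of -0.60 was larger than that of Rxra, but its SE of 0.279 left it short of the threshold (adjusted p = 0.177).

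Rara, a receptor for retinoic acid, was the third gene that fell. Its FPKM was 4.52, 4.72, 5.82 and 5.73 in METTL3-HKD livers and 7.06, 7.16, 7.08 and 7.44 in METTL3-Flox livers. All METTL3-Flox livers lay within a narrow band, and all METTL3-HKD livers lay under it, livers 1 and 2 the furthest. The means were 5.20 ± 0.673 and 7.19 ± 0.176 FPKM (SD, n = 4), with a log2 fold change of -0.47 (SE 0.106, adjusted p = 0.0219). Rara (ENSMUSG00000037992) lies at chr11:98927818-98974942 on the plus strand and passed in 10 of 18 alternatives, with an adjusted p of 0.0159 to 0.141.

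The other retinoic acid receptors were lower in level and did not pass. Rarg spanned 1.36 to 1.91 FPKM in METTL3-HKD livers and 1.21 to 2.66 FPKM in METTL3-Flox livers, around each other (log2 fold change -0.14, adjusted p = 0.708). Rarb had 0.264, 0.267, 0.252 and 0.307 FPKM in METTL3-HKD livers and 0.214, 0.223, 0.337 and 0.224 FPKM in METTL3-Flox livers. Only METTL3-Flox liver 3 stood above the METTL3-HKD livers in Rarb (log2 fold change 0.10, SE 0.217, adjusted p = 0.782). Of the gene's exon bases, 34.06% are shared with Top2b on the opposite strand. Top2b had a mean of 3.70 FPKM against 0.261 for Rarb, so reads of Top2b may be part of the Rarb value. Rora, grouped with these genes here though not a retinoic acid receptor, also acts in the circadian clock. It ranged from 4.54 to 5.48 FPKM in METTL3-HKD livers and from 4.54 to 6.30 FPKM in METTL3-Flox livers (log2 fold change -0.13, adjusted p = 0.509).

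**Figure D3:**
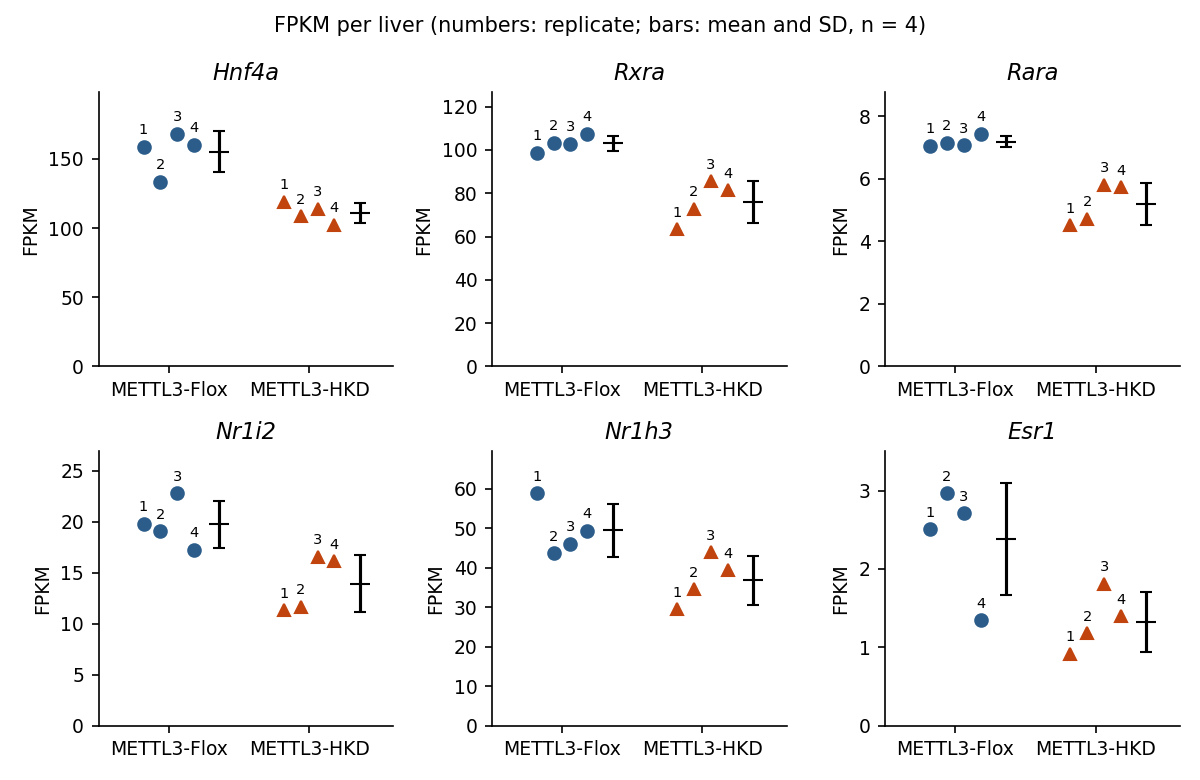
FPKM of 6 receptors in each liver, on linear axes from 0, with the replicate number beside each point and the mean and SD (n = 4) beside each group. On this deposited scale Hnf4a, Rxra, Rara and Nr1i2 show no overlap between the groups. For Esr1, METTL3-Flox liver 4 lies within the METTL3-HKD range.

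The receptors for oxysterols differed in level between each other more than between the groups. Nr1h3 had 29.5, 34.5, 43.9 and 39.3 FPKM in METTL3-HKD livers and 58.9, 43.6, 46.1 and 49.4 FPKM in METTL3-Flox livers. METTL3-HKD liver 3 reached the lowest METTL3-Flox liver, and the other METTL3-HKD livers lay below all of them (log2 fold change -0.43, SE 0.143, adjusted p = 0.0719). Nr1h2, which encodes the broadly expressed LXRbeta, had 13.0, 15.0, 10.7 and 11.95 FPKM in METTL3-HKD livers and 12.8, 11.5, 12.7 and 14.0 FPKM in METTL3-Flox livers. The Nr1h2 groups covered the same range, with means of 12.7 ± 1.83 and 12.7 ± 1.03 FPKM and a 95% interval of the log2 fold change from -0.28 to 0.25.

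Nr1i2, the gene of the xenobiotic sensor PXR, stood just outside the threshold. It had 11.4, 11.7, 16.6 and 16.1 FPKM in METTL3-HKD livers and 19.8, 19.1, 22.8 and 17.3 FPKM in METTL3-Flox livers. The groups did not overlap, and METTL3-HKD livers 1 and 2 lay well below livers 3 and 4. The log2 fold change was -0.52 (SE 0.152, adjusted p = 0.0509), and it passed in 3 of 18 alternatives. Nr1i3, which encodes the related sensor CAR, ranged from 3.18 to 5.34 FPKM in METTL3-HKD livers and from 3.96 to 6.07 FPKM in METTL3-Flox livers (log2 fold change -0.26, adjusted p = 0.407). Of its exon bases, 74.85% are shared with Tomm40l on the opposite strand, so reads of the 2 genes may be mixed.

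Vdr, the vitamin D receptor, is barely expressed in hepatocytes and was below the minimum for testing. Its FPKM was 0.220, 0.0287, 0.00980 and 0.133 in METTL3-HKD livers, from 25, 3, 1 and 14 reads. In METTL3-Flox livers it was 0.0125 FPKM in liver 1, from 1 read, and 0 in the other 3 livers. METTL3-HKD livers 1 and 4 held nearly all reads, and METTL3-HKD liver 3 lay below METTL3-Flox liver 1. Over the groups, 43 reads stood against 1 read, a ratio of 35.2 per library size with a 95% interval from 6.00 to 1424 that covers counting error only. The exact two-sided permutation test of its FPKM gave p = 0.0571, where 0.0286 is the smallest value that 4 against 4 livers allow.

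The PPAR family of fatty acid sensors did not pass in either direction. Ppara, which drives fatty acid oxidation in fasting liver, had 19.997, 26.0, 31.7 and 28.0 FPKM in METTL3-HKD livers and 14.5, 39.2, 24.1 and 32.2 FPKM in METTL3-Flox livers. The METTL3-Flox livers spread more than the METTL3-HKD livers and enclosed them. Its log2 fold change was 0.02 with a 95% interval from -0.63 to 0.66, so differences within that interval are not excluded. Pparg, better known from fat tissue, ranged from 1.97 to 2.84 FPKM and from 1.83 to 3.07 FPKM in METTL3-HKD and METTL3-Flox livers (log2 fold change -0.05, adjusted p = 0.894). Ppard, the ubiquitous member, had 1.63, 1.22, 0.928 and 0.974 FPKM in METTL3-HKD livers and 0.974, 0.922, 1.12 and 0.951 FPKM in METTL3-Flox livers. METTL3-HKD livers 1 and 2 were above all METTL3-Flox livers in Ppard and livers 3 and 4 were within them (log2 fold change 0.21, SE 0.186, adjusted p = 0.476).

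The thyroid hormone receptors did not pass, with negative log2 fold changes. Thrb, the main form in hepatocytes, had 2.83, 2.997, 4.55 and 3.99 FPKM in METTL3-HKD livers and 3.89, 4.11, 4.95 and 4.52 FPKM in METTL3-Flox livers. Livers 1 and 2 of the METTL3-HKD group were below, and livers 3 and 4 among, the METTL3-Flox livers (log2 fold change -0.30, SE 0.164, adjusted p = 0.246). Thra had 2.23, 2.98, 2.12 and 2.40 FPKM in METTL3-HKD livers and 2.62, 2.96, 3.26 and 2.71 FPKM in METTL3-Flox livers. METTL3-HKD liver 2 alone lay within the METTL3-Flox range (log2 fold change -0.25, SE 0.133, adjusted p = 0.238). On the opposite strand Nr1d1, at a mean of 9.07 FPKM against 2.66 for Thra, overlaps 5.7% of Thra's exon bases.

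Among the steroid receptors none passed, and Esr1 had the largest difference. Its METTL3-Flox mean of 2.38 FPKM was close to the 2.39 FPKM of Nr3c2. Nr3c1, the glucocorticoid receptor, had 8.94, 10.8, 12.4 and 9.83 FPKM in METTL3-HKD livers and 9.45, 11.9, 13.4 and 12.6 FPKM in METTL3-Flox livers. The ranges overlapped over most of their length (log2 fold change -0.17, SE 0.139, adjusted p = 0.440). Nr3c2, the mineralocorticoid receptor, ranged from 1.21 to 2.11 FPKM in METTL3-HKD livers and from 1.72 to 3.13 FPKM in METTL3-Flox livers (log2 fold change -0.43, adjusted p = 0.208). Esr1, the oestrogen receptor alpha, had 0.917, 1.18, 1.81 and 1.39 FPKM in METTL3-HKD livers and 2.50, 2.97, 2.71 and 1.35 FPKM in METTL3-Flox livers. METTL3-Flox liver 4 fell within the METTL3-HKD range, and the other METTL3-Flox livers lay above it. The Esr1 log2 fold change of -0.78 (SE 0.272) was the largest negative value of the 30 receptors tested, with an adjusted p of 0.0821. Without METTL3-Flox liver 4 it was -1.02 (adjusted p = 0.0326, limma). That was the only 1 of 18 alternatives in which Esr1 passed. Across them the adjusted p ranged from 0.0326 to 0.427 and the log2 fold change from -1.02 to -0.498.

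The oestrogen-related receptors act without a known hormone and regulate mitochondrial genes. Esrra had 10.01, 9.27, 13.6 and 10.2 FPKM in METTL3-HKD livers and 12.9, 13.2, 13.6 and 14.1 FPKM in METTL3-Flox livers. METTL3-HKD liver 3 lay among the METTL3-Flox livers and the others below them (log2 fold change -0.33, SE 0.122, adjusted p = 0.0945). Esrrg ranged from 0.130 to 0.196 FPKM and from 0.0907 to 0.249 FPKM (log2 fold change 0.05, adjusted p = 0.929). Esrrb, a regulator of pluripotent cells, was not tested. It had 0.00822, 0.0805, 0.101 and 0.0356 FPKM in METTL3-HKD livers and 0.0931, 0.133, 0.207 and 0.113 FPKM in METTL3-Flox livers, from 25 and 51 reads over the groups. METTL3-HKD liver 3 reached into the METTL3-Flox range in Esrrb (exact two-sided permutation test, p = 0.0571).

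Nr5a2, whose product LRH-1 acts on bile acid synthesis genes, had 8.97, 9.65, 10.3 and 9.05 FPKM in METTL3-HKD livers and 8.54, 11.6, 13.3 and 11.2 FPKM in METTL3-Flox livers. METTL3-Flox liver 1 was the lowest of all, and the other METTL3-Flox livers were above the METTL3-HKD livers (log2 fold change -0.22, SE 0.134, adjusted p = 0.301). Nr6a1, the germ cell nuclear factor, had 0.556, 0.775, 0.573 and 0.522 FPKM in METTL3-HKD livers and 0.351, 0.589, 0.912 and 0.746 FPKM in METTL3-Flox livers. The METTL3-Flox livers enclosed the METTL3-HKD livers in Nr6a1 (log2 fold change -0.04, SE 0.263, adjusted p = 0.943).

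The COUP and testicular receptors are orphan receptors, often repressive. Nr2f6 was the most abundant, with 21.2, 25.5, 26.8 and 26.0 FPKM in METTL3-HKD livers and 40.2, 27.1, 34.5 and 31.5 FPKM in METTL3-Flox livers. The groups did not overlap, by a small gap between METTL3-HKD liver 3 and METTL3-Flox liver 2, and the gene did not pass (log2 fold change -0.41, SE 0.132, adjusted p = 0.0653). Ocel1, on the opposite strand, shares 54.37% of the exon bases of Nr2f6, at a mean level of 1.96 FPKM. Nr2f1, the lowest of this family, had 0.0781, 0.127, 0.163 and 0.127 FPKM in METTL3-HKD livers and 0.193, 0.194, 0.207 and 0.122 FPKM in METTL3-Flox livers. METTL3-Flox liver 4 lay among the METTL3-HKD livers in Nr2f1 (log2 fold change -0.32, SE 0.269, adjusted p = 0.451). Nr2f2, Nr2c1 and Nr2c2 had log2 fold changes of -0.20, -0.22 and -0.08 with adjusted p of 0.611, 0.356 and 0.817. Nr2f2 spanned 1.74 to 3.75 FPKM in METTL3-HKD livers and 2.31 to 3.59 FPKM in METTL3-Flox livers. For Nr2c1 the ranges were 1.82 to 3.11 and 2.75 to 2.91 FPKM, and for Nr2c2 0.804 to 0.893 and 0.575 to 1.15 FPKM. The METTL3-Flox livers were the tighter group for Nr2c1 and the METTL3-HKD livers for Nr2c2. Nr2c2 shares 30.73% of its exon bases with Mrps25 on the opposite strand, at a mean of 1.57 FPKM against 0.886 for Nr2c2.

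The METTL3-HKD livers were not alike in these genes. On the deposited FPKM, livers 1 and 2 were both below livers 3 and 4 for 11 of the 30 receptors, among them Rxra, Rara, Nr1h3 and Nr1i2. Of all genes tested, 23.2% had livers 1 and 2 below. For 2 receptors livers 1 and 2 were both above. The deposited library size over reads on genes was 1.167 and 1.158 in livers 1 and 2, and 1.016 and 1.008 in livers 3 and 4. A larger library size lowers the FPKM of every gene, and this order was not counted under another scaling. METTL3-HKD liver 1 was the lowest of its group for 15 receptors and liver 3 the highest for 16, with no share over all genes counted for these. Without METTL3-HKD livers 1 and 2, 0 receptors passed, in a comparison of 2 livers with 4. That fit called 195 of all 16444 genes tested lower (1.19%) and 321 higher, against 1104 and 1506 with all livers. Counts given below for gene lists without these 2 livers come from the same fit and are to be read against that loss.

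The receptor calls depended on how libraries were scaled. With reads on genes as the library size in place of the deposited one, the median over all genes was 0.197 on the log2 scale in place of -0.0028. Then 0 receptors were called lower and 0 higher, against 2.24% and 13.8% of all genes. By sign 16 of 30 receptors were then negative, and 26 lay below the median of all genes. Those that turned from negative to positive were 9 (Nr1h2, Nr2c2, Nr2f2, Nr3c1, Nr6a1, Pparg, Rarg, Rora and Rxrb). Relative to that median Hnf4a stood at -0.46, Rxra at -0.43 and Rara at -0.45, close to their values on the deposited scale. The gaps between groups described for single receptors and for their sum are on the deposited scale and do not all carry over to this one.

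**Figure D4:**
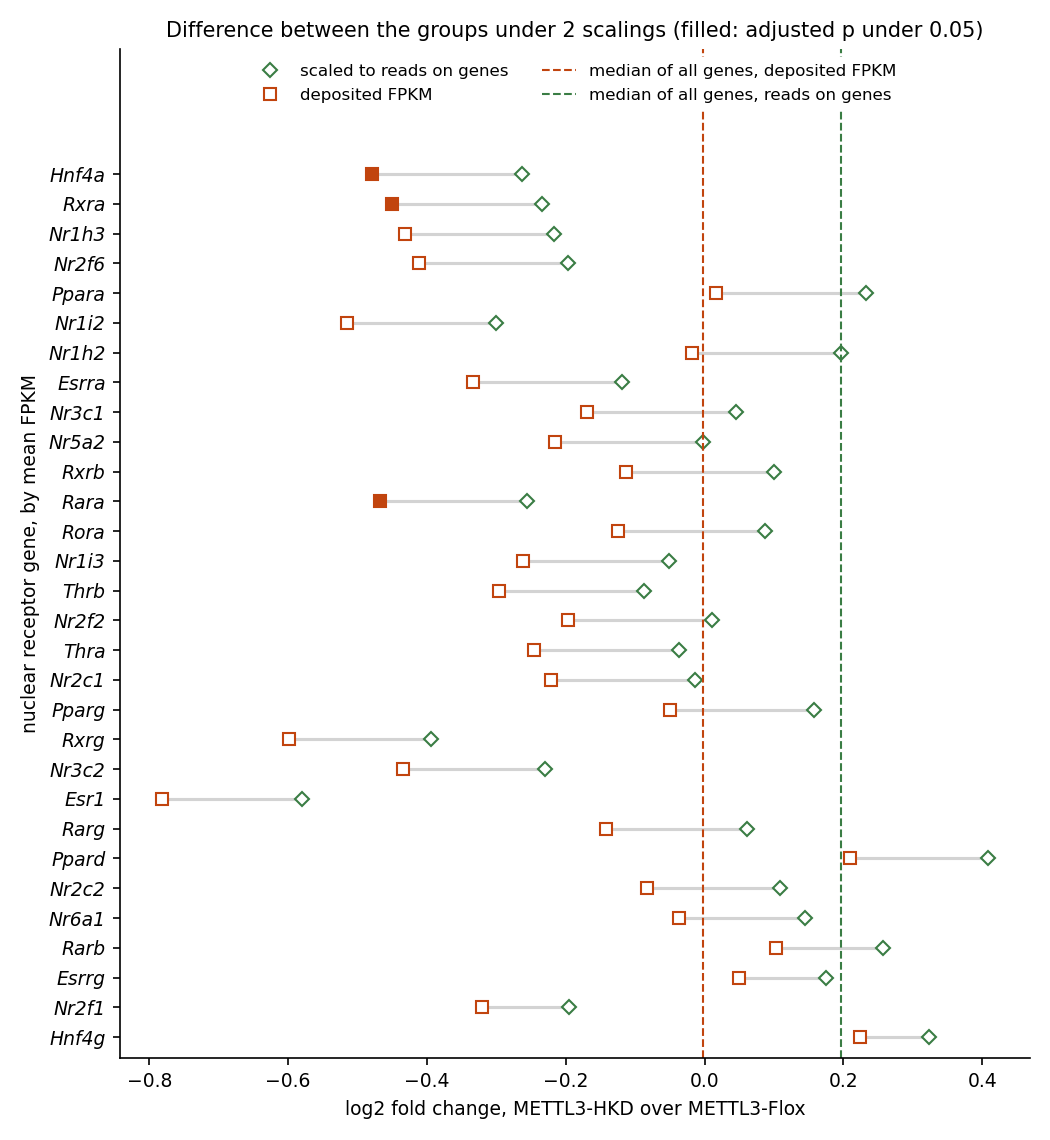
Log2 fold change of each of the 30 receptors on the deposited FPKM (squares, filled where the adjusted p was under 0.05) and with reads on genes as library size (diamonds), with dashed lines at the median of all genes under each scaling. The points and the median moved together to the right, so that 25 receptors lie left of the median on the first scale and 26 on the other, while the sign turned positive for 9.

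Ratios between receptors of a family, as grouped here, within the same liver do not depend on library scaling. Of 8 such ratios, compared by exact two-sided permutation tests, Rxra over Rxrb was the only one without overlap. It was 7.39, 7.55, 9.71 and 9.47 in METTL3-HKD livers and 9.85, 12.3, 9.76 and 11.0 in METTL3-Flox livers. All METTL3-HKD livers lay below, with the highest of them just short of the lowest METTL3-Flox liver. The means were 8.53 ± 1.23 and 10.7 ± 1.21 (SD, n = 4; exact permutation p = 0.0286, the smallest possible, and 0.229 after adjustment over the 8 ratios). Rara over Rora had means of 1.08 ± 0.123 and 1.37 ± 0.181 (exact permutation p = 0.0571, adjusted 0.229), and the other 6 ratios had exact p of 0.171 or more.

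The other nuclear receptors of the genome were examined as a list of 17, of which 10 were tested. Nr4a3, Nr4a1 and Nr4a2, receptors of the immediate early kind, were higher in METTL3-HKD livers and Nr1h5 and Nr1h4 were lower. Of all genes tested, 9.05% were called higher and 6.63% lower. Nr1h4, which encodes the bile acid receptor FXR, had 21.3, 26.9, 41.2 and 38.5 FPKM in METTL3-HKD livers and 51.8, 61.5, 59.7 and 62.1 FPKM in METTL3-Flox livers. No liver overlapped, and the log2 fold change of -0.92 (SE 0.200, adjusted p = 0.0190) was further from 0 than that of any of the 30 receptors tested. Nr1h5 had a log2 fold change of -1.72 (adjusted p = 0.0102) at under 1 FPKM in every liver. For Nr4a1 the values were 5.26, 4.61, 1.53 and 2.64 FPKM in METTL3-HKD livers and 0.381, 0.635, 0.844 and 0.425 FPKM in METTL3-Flox livers, apart in every liver. The log2 fold changes were 2.33 for Nr4a1, 1.32 for Nr4a2 and 2.57 for Nr4a3, with adjusted p of 0.00821, 0.0264 and 0.00473. Without METTL3-HKD livers 1 and 2, 0 of these receptors were called higher and 1 lower.

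Coactivators and corepressors, the proteins that receptors recruit to their target genes, mostly did not pass. The counts below stand against 9.05% of all genes called higher and 6.63% called lower. Of 19 coactivators tested, 2 were higher, Pprc1 and Prmt1, and 1 was lower, Lpin1. Lpin1, a phosphatidate phosphatase that also coactivates PPARalpha, had 1.53, 1.25, 3.14 and 4.13 FPKM in METTL3-HKD livers and 6.07, 8.50, 6.51 and 8.56 FPKM in METTL3-Flox livers. The groups were apart, with livers 1 and 2 the lowest (log2 fold change -1.66, SE 0.345, adjusted p = 0.0164). Pprc1, a relative of PGC-1alpha, rose by 1.04 on the log2 scale (adjusted p = 0.0104), and the arginine methyltransferase gene Prmt1 by 0.51 (adjusted p = 0.0402). Of 11 corepressors, the demethylase gene Kdm1a and Hr were higher, with log2 fold changes of 0.79 and 1.03 (adjusted p = 0.0108 and 0.0445), and 0 were lower, where 2 had an unadjusted p under 0.05 with a negative sign. The median log2 fold change was 0.0197 over the coactivators and 0.0790 over the corepressors. With METTL3-HKD livers 1 and 2 left out, 0 coactivators and 0 corepressors were called higher, and 1 coactivator was called lower.

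Target genes of the receptors went in both directions. Of 17 HNF4A target genes tested, 5 were lower and 0 higher, with 0 also at an unadjusted p under 0.05 in that direction. By sign 15 were negative, with a median of -0.359. By the same rule 6.63% of all genes were lower and 9.05% higher. Most genes of this list had a mean of at least 10 FPKM. Among all genes of that level, 14.3% were called lower and 62.3% were negative. Cyp8b1, the enzyme that directs bile acid synthesis towards cholic acid, had 16.8, 35.2, 30.4 and 30.8 FPKM in METTL3-HKD livers and 121, 156, 146 and 109 FPKM in METTL3-Flox livers. Every METTL3-HKD liver lay far below every METTL3-Flox liver (log2 fold change -2.27, SE 0.227, adjusted p = 0.00190). The coagulation factor genes F7, F9 and F12 had log2 fold changes of -0.66, -0.44 and -0.58 (adjusted p = 0.0113, 0.0256 and 0.0281), and Slc27a5, of bile acid conjugation, -0.45 (adjusted p = 0.0262). Without METTL3-HKD livers 1 and 2, 1 of the 17 was called.

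Of the 5 LRH-1 target genes 2 were lower, Cyp8b1 and Cyp7a1, and 0 higher, against 6.63% and 9.05% of all genes. Cyp7a1, the rate-limiting enzyme of bile acid synthesis, had 1.20, 1.67, 2.90 and 3.39 FPKM in METTL3-HKD livers and 7.47, 52.6, 19.3 and 23.6 FPKM in METTL3-Flox livers. METTL3-Flox livers varied widely, and all lay above the METTL3-HKD livers (log2 fold change -3.22, SE 0.546, adjusted p = 0.00896). Without METTL3-HKD livers 1 and 2, 1 of the 5 LRH-1 targets was called. Of 8 retinoic acid receptor targets tested, Cyp26a1, Dhrs3 and Lrat were lower and Tgm2 was higher, against the same shares of all genes. Cyp26a1, which degrades retinoic acid, had 1.35, 4.39, 3.68 and 1.88 FPKM in METTL3-HKD livers and 10.3, 5.62, 11.4 and 6.87 FPKM in METTL3-Flox livers. These did not overlap (log2 fold change -1.65, SE 0.377, adjusted p = 0.0227). Dhrs3 and Lrat, of retinal reduction and retinol storage, stood at -1.11 and -0.88 (adjusted p = 0.0241 and 0.0265), and Tgm2, a transglutaminase gene, at 0.92 (adjusted p = 0.00821). Lrat is also among the stellate cell markers above. Without METTL3-HKD livers 1 and 2, 0 of the 8 were called lower.

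Of 22 PPARalpha target genes 4 were higher and 0 lower, against 9.05% and 6.63% of all genes. At an unadjusted p under 0.05, 1 had a negative sign, and the median was 0.355. Plin2, a coat protein of lipid droplets, had 622, 489, 306 and 287 FPKM in METTL3-HKD livers and 124, 106, 108 and 148 FPKM in METTL3-Flox livers. The groups were apart, with METTL3-HKD livers 1 and 2 highest (log2 fold change 1.75, SE 0.251, adjusted p = 0.00523). Pdk4, the kinase that turns down pyruvate oxidation, Angptl4, an inhibitor of lipoprotein lipase, and the fatty acid hydroxylase gene Cyp4a14 had log2 fold changes of 3.13, 1.09 and 1.86 (adjusted p = 0.0121, 0.0343 and 0.0461). Cyp4a14 has close relatives that may share its reads. The count of 4 was 2 without METTL3-HKD livers 1 and 2.

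Of 13 LXR target genes 3 were higher and 3 lower, against 9.05% and 6.63% of all genes. The sterol exporter genes Abca1, Abcg5 and Abcg8 had log2 fold changes of 0.56, 0.89 and 1.01 (adjusted p = 0.0413, 0.0462 and 0.0222), and the spans of Abcg5 and Abcg8 overlap on opposite strands, so their reads may be mixed. Mylip, which marks the LDL receptor for breakdown, had 2.15, 2.61, 2.95 and 2.88 FPKM in METTL3-HKD livers and 4.94, 5.11, 5.23 and 5.76 FPKM in METTL3-Flox livers. Its groups were wide apart for their spread (log2 fold change -0.97, SE 0.120, adjusted p = 0.00360). Cyp7a1 and Smpdl3a were also lower, Smpdl3a, chosen for naming after its value was seen, by a log2 fold change of -0.41 (adjusted p = 0.0465). Leaving out METTL3-HKD livers 1 and 2 brought these counts to 0 higher and 1 lower.

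Of 18 CAR and PXR target genes 5 were higher and 1 lower, against 9.05% and 6.63% of all genes. Cyp2b10, the drug-metabolising enzyme used as a readout of CAR, had 41.8, 58.6, 60.3 and 61.4 FPKM in METTL3-HKD livers and 24.0, 7.94, 9.06 and 10.6 FPKM in METTL3-Flox livers. The groups were apart (log2 fold change 2.23, SE 0.316, adjusted p = 0.00504). Cyp2b9 was listed at 0 in all 4 METTL3-Flox livers and at 3.50, 12.2, 0.118 and 0.975 FPKM in METTL3-HKD livers, and both Cyp2b genes have close relatives that may share reads. Abcb1a and Abcc4, which encode efflux pumps, and Por, the electron donor of the cytochrome P450 enzymes, stood at 1.40, 0.95 and 0.77 (adjusted p = 0.0141, 0.0454 and 0.0434). Aldh1a1, a retinal dehydrogenase gene, was lower at -0.51 (adjusted p = 0.0386). Without METTL3-HKD livers 1 and 2, 1 of the 18 was called higher and 0 lower.

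Of 12 glucocorticoid receptor targets Dusp1 was higher and Klf9 lower, and of 6 thyroid hormone receptor targets Gpd2 was higher and Klf9, which is in both lists, was lower. Against these counts stand 9.05% of all genes called higher and 6.63% called lower. Klf9 encodes a hormone-responsive transcription factor. Its FPKM in METTL3-HKD livers was 19.8, 18.8, 21.5 and 18.2, and in METTL3-Flox livers 28.4, 32.6, 29.5 and 30.3. Both groups were tight and did not overlap (log2 fold change -0.63, SE 0.0853, adjusted p = 0.00443). Dusp1, a MAPK phosphatase gene, stood at 1.72 (adjusted p = 0.0219) and Gpd2, of the glycerophosphate shuttle, at 0.81 (adjusted p = 0.0274). In both lists 0 genes were called higher and 1 lower once METTL3-HKD livers 1 and 2 were left out. The median log2 fold change was -0.304 over the LXR list, 0.309 over the CAR and PXR list, -0.186 over the glucocorticoid list, 0.125 over the thyroid hormone list, -0.907 over the retinoic acid list and -1.63 over the LRH-1 list.

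**Figure D5:**
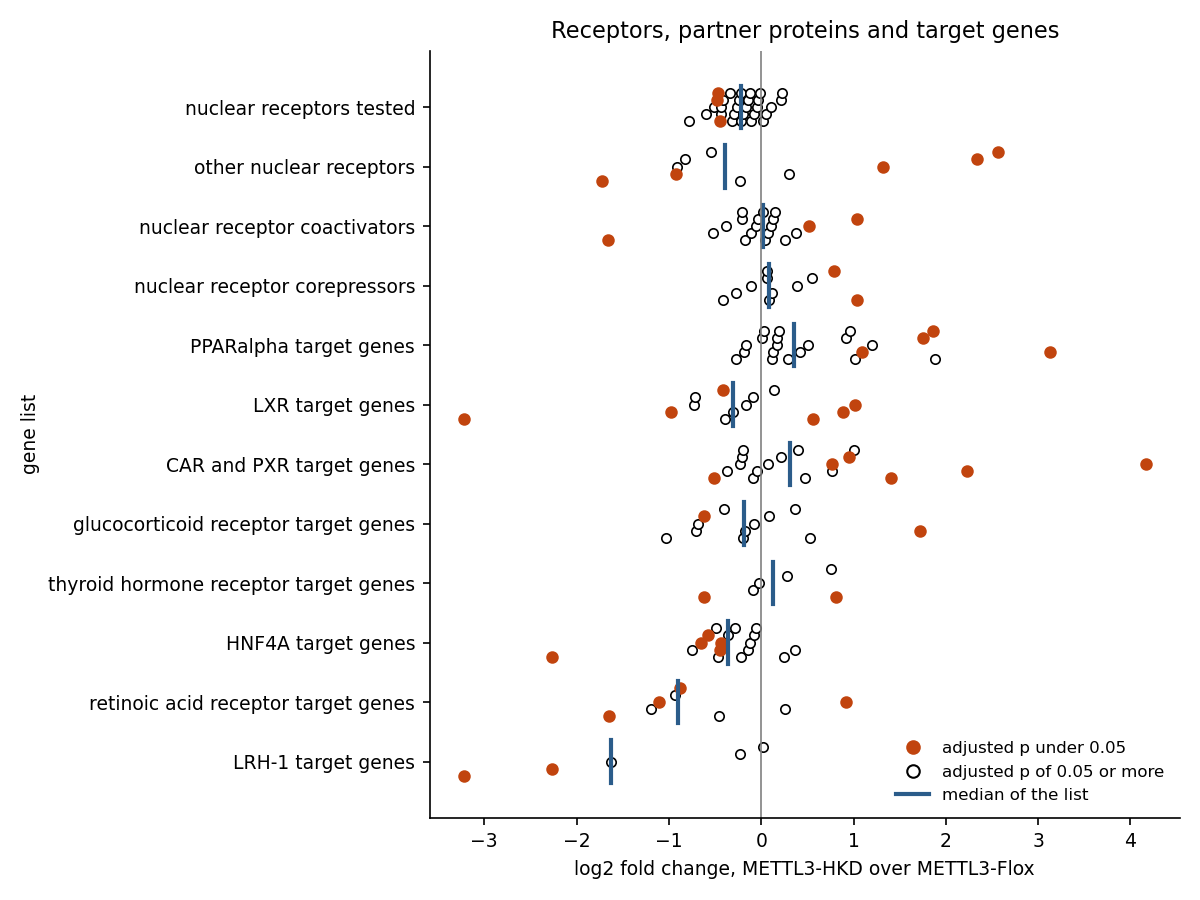
Log2 fold change of METTL3-HKD over METTL3-Flox livers for every tested gene of the receptor set, of the other nuclear receptors, of 2 lists of partner proteins and of 8 lists of target genes. Filled points have an adjusted p under 0.05 and the bar is the median of the list; the receptor set is narrow and shifted to the left, while target genes reach from Cyp7a1 at -3.22 to Cyp2b9 at the far right.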

How the data were processed

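Whole-liver RNA was sequenced in 8 libraries, 4 per group, and groups follow the sample labels. The authors deposited FPKM per gene, and the submitters' processing notes name the builds GRCm38 and mm10. Aligner, counter, gene models and strand handling are not given in the sources used here. Reads rebuilt from FPKM and gene length were whole within a tolerance of 0.05. Genes averaging 0.1 FPKM or more over all libraries were tested on log2(FPKM + 0.1) with limma 3.58.1 (R 4.3.3, mean-variance trend), and p-values were adjusted by Benjamini-Hochberg over all genes tested. This log2 scale understates changes of low genes. Exact two-sided permutation tests used scipy 1.17.1 (Python 3.11.15). The fit was tested on simulated data. Receptors and gene lists were chosen with earlier results of these data known. Every receptor is named, in every liver where its adjusted p was under 0.05 or where it was the highest or lowest of its family. Of each list, up to 5 called genes of the majority sign and up to 2 of the other are named, by smallest adjusted p. Alternatives changed the pseudocount, the minimum, the scaling, the trend, sample weights, the replicate block, the test (voom) and the livers included.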

Additional observations from a re-analysis of the deposited data

Results flagged for a closer look

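Of 139 groups of 4 livers checked for a liver far from its group, 9 had one by Dixon's test, and chance gives about 1 in 20. Among the receptors, METTL3-Flox liver 4 was low in Nr2f1 (0.122 FPKM, next 0.193), METTL3-Flox liver 1 was low in Nr2f2 (2.31, next 3.49), METTL3-Flox liver 3 was high in Rarb (0.337, next 0.224), and METTL3-Flox liver 1 held the single Vdr read of its group (0.0125 FPKM, the others 0). With the other livers at 0, a single read is always flagged, so the Vdr flag is not informative. Among target genes, METTL3-Flox liver 4 was high in Angptl4 (37.8 FPKM) and low in F7 (45.2 FPKM). Cyp2b10 was low in METTL3-HKD liver 1 (41.8 FPKM) and high in METTL3-Flox liver 1 (24.0 FPKM), and Tgm2 was high in METTL3-HKD liver 1 (81.0 FPKM).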

How the results depend on the processing

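Of 18 alternatives, 2 of them scalings and 1 chosen after seeing the data (METTL3-HKD livers 1 and 2 left out together, as were the ratios within livers), the count of receptors called lower, 3, was 0 with reads on genes as library size, 0 with the replicate block and 0 without METTL3-HKD livers 1 and 2. It ran from 0 to 6 when single livers were left out, and the count past both thresholds from 0 to 1. The share of all genes called lower ran from 2.13% to 6.89% in those fits. The replicate block also took the count of all genes from 1104 to 645 lower and from 1506 to 971 higher. Leaving out METTL3-HKD livers 1 and 2 took it to 195 lower and 321 higher. Same-numbered livers deviated together with r of 0.0711, -0.0838, -0.0134 and -0.0339, and only liver 1 matched its own number best. These values show no clear pairing by number. With so few livers per group they cannot tell whether a weaker pairing, such as a shared litter, is present. The sign turned with reads on genes as library size for Nr1h2 (0.197), Nr2c2 (0.108), Nr2f2 (0.0114), Nr3c1 (0.0454), Nr6a1 (0.145), Pparg (0.158), Rarg (0.0612), Rora (0.0868) and Rxrb (0.101). It turned with array weights for Ppara (-0.0621), Pparg (0.053) and Esrrg (-0.000383), and without METTL3-HKD livers 1 and 2 for Nr1i3 (0.0553), Nr2f2 (0.0184) and Ppard (-0.0519). Without single livers the log2 fold change ran from -0.103 to 0.0595 for Nr1h2, -0.272 to 0.0251 for Nr2c2, -0.345 to 0.0164 for Nr2f2, -0.261 to 0.128 for Nr6a1, -0.259 to 0.218 for Ppara, -0.183 to 0.0566 for Pparg, -0.345 to 0.0147 for Rarg and -0.0779 to 0.213 for Esrrg. Hnf4a, Rxra, Rara and Nr1i2 were negative under all 18. So were Nr1h3, Nr2c1, Nr2f6, Nr3c2, Nr5a2, Rxrg, Thra, Thrb, Esr1 and Esrra, and Nr2f1 was negative in all 17 that tested it. Counts of HNF4A targets called lower, 5, were 3 with reads on genes as library size and 2 with the replicate block, and LXR targets called higher, 3, were 0 with the block. Apart from the scaling, which shifts all genes, the causes were not tested. Levels near a few reads per liver limit Vdr, Hnf4g and Esrrb.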
